A study of Mus musculus with 93 samples.

Results

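Expression of 10 genes of amino acid metabolism and the integrated stress response was followed in RNA-seq libraries of mouse R1 embryonic stem cells. The genes were Atf4, Ddit3, Trib3, Chac1, Sesn2, Ddit4, Asns, Psat1, Slc3a2 and Slc7a11. They were taken by gene name from count tables that list 33924 gene names, and all 10 were found in each table. The 12 libraries form 4 groups of 3. In set 1, cells of the genotype Ring1b I53A, a point mutation in the catalytic subunit of Polycomb repressive complex 1, stand against wild type (WT) cells. In set 2, cells labelled H1b/c/d/e-QKO, a quadruple knockout of linker histone genes, stand against WT cells. All groups are of the R1 line and were grown in serum medium with LIF, nonessential amino acids, L-glutamine and 2-mercaptoethanol. The labels do not say how many clones a mutant line comes from, or whether replicates came from different cultures. The p-values are therefore against a spread between libraries that may be technical only.

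In the integrated stress response, kinases that sense amino acid shortage, misfolded protein, haem deficiency or double-stranded RNA phosphorylate the translation factor eIF2. General translation then slows, while translation of the transcription factor ATF4 rises. ATF4 and its partners of the C/EBP family induce genes that import and make amino acids, restrain mTORC1 and, if the stress lasts, promote cell death. Because ATF4 is controlled in large part by translation, the amount of its RNA need not follow the amount of its protein.

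ATF4 and C/EBP proteins bind a composite element whose core is read here as TTGCATCA or TTTCATCA. RefSeq promoter windows of GRCm38.p6, from 250 bases before to 50 bases after the annotated start, were found for all 10 genes, with 11 windows in all. Of the 10 genes 3 held a core on either strand, namely Chac1, Asns and Slc7a11. Trib3 changed in the same comparisons as Chac1 and held neither core, though it holds TTACATCA, which was not read as a core here. The windows of these 3 genes and of Trib3 are shown with the matched bases in capitals. Each is written 5′ to 3′ on the strand of the gene.
Chac1: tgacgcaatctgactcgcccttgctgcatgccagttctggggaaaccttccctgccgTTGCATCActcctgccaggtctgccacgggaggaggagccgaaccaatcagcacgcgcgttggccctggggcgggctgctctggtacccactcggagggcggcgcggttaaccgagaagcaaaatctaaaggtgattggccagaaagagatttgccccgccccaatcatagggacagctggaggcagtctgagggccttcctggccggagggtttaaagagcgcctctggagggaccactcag
Trib3: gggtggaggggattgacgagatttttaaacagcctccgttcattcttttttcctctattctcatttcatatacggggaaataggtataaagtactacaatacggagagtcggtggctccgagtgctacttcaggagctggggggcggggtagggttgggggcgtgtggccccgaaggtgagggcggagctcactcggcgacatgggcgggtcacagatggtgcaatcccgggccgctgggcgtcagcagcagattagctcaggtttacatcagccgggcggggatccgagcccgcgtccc
Asns: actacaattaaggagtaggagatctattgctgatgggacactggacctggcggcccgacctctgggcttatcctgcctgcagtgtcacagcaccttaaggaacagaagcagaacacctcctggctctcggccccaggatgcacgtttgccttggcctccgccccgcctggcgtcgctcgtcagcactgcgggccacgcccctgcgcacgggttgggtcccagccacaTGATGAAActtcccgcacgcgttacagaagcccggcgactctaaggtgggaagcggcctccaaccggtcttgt
Slc7a11: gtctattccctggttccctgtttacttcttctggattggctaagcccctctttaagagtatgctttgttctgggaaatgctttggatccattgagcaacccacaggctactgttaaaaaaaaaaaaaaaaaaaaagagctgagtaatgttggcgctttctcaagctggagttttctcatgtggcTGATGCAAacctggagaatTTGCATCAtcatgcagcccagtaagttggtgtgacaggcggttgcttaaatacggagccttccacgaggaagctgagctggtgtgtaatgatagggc
In GRCm38.p6 these windows are chr2:119350992-119351291 on the plus strand for Chac1, and on the minus strand chr2:152344011-152344310 for Trib3, chr6:7693160-7693459 for Asns and chr3:50443564-50443863 for Slc7a11. The Chac1 match lies 193 to 186 bases before the start. The Asns match is TTTCATCA on the opposite strand, 23 to 16 bases before the start. Slc7a11 holds 2 matches of TTGCATCA, 1 on the opposite strand 66 to 59 bases and 1 on its own strand 47 to 40 bases before the start. Among 32851 promoter windows of the same length 1.90% hold either core (0.895% TTGCATCA and 1.02% TTTCATCA), and 0.0244% hold 2 or more matches. No member window held TGACGTCA, the cyclic AMP response element, found in 1.79% of windows, or the ER stress element, found in 0.119%. A match is a description of the letters, and the absence of one says only that the letters are not in the window.

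Depth was 12585621 to 23378930 counts per library. In set 1, replicate 3 of both groups was the shallowest and stood apart, with 21.2 to 27.3 chi-square units per degree of freedom against the other replicates of its group, where replicates 1 and 2 gave 2.93 to 4.06. The tables of those libraries are also named in another style, which was treated as a possible batch, so log2 ratios within replicates 1 and 2 and within replicate 3 are given beside the called genes of set 1. Of the genes that check the labels, Rnf2, which encodes Ring1b, had 93.2 ± 6.58 CPM in I53A and 186 ± 7.72 CPM in WT (mean ± SD, n = 3 each, where CPM is the count relative to the TMM-scaled library total of the set). It was called 2.00-fold lower in I53A (SE 0.08 on the log2 scale, edgeR adjusted p = 5.6e-05), but since a point mutation need not change the RNA, this does not check the label. None of the 4 H1 genes named by the QKO label was called lower in the libraries so labelled. Hist1h1b was called 11.4-fold higher, with 62, 53 and 72 counts in the libraries labelled QKO against 4, 9 and 2 counts in WT (edgeR adjusted p = 5.5e-12). Hist1h1d was under 0.5 CPM on average in both groups and not called, and Hist1h1e, with 12 counts at most, was not tested. Hist1h1c had 8.30 ± 1.04 CPM there and 9.11 ± 0.706 CPM in WT (n = 3 each) and was not called. The RNA levels thus do not show the knockout that the label names. They do not check the label either, since a knockout need not lower the RNA and Hist1h1d and Hist1h1e had few counts. The group is therefore called the libraries labelled QKO.

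Comparing I53A with WT asks how gene expression differs in cells that carry the mutant Ring1b. Ddit3, Chac1, Slc3a2, Trib3 and Psat1 were lower in I53A, and Ddit4 was higher. Ddit3 was 2.81-fold lower, Chac1 2.43-fold and Slc3a2 1.76-fold, while Ddit4 was 1.66-fold higher. Atf4, Asns and Sesn2 were not called, and Slc7a11 had too few counts to be tested. With the replicate block, which pairs the libraries of set 1 by number, Atf4 was called lower and Sesn2 higher as well (edgeR adjusted p = 0.00540 and 0.000132). The share of all genes called was then 56.6%. Of the 9 genes tested, 1 was called higher and 5 lower at an edgeR adjusted p under 0.05. Over all 15536 genes tested 35.5% were called, 18.1% higher and 17.4% lower. The median log2 fold change of the 9 genes was -0.23, and that of all genes tested was -0.0010. In 7 of the 9 genes the groups did not overlap, which held for 49.4% of all genes tested.

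In the libraries labelled QKO, Ddit4, Chac1 and Trib3 were lower than in WT and Ddit3 was higher. Ddit4 was 2.15-fold lower, Chac1 1.59-fold and Trib3 1.49-fold, while Ddit3 was 1.36-fold higher. The 6 others were not called. Thus 1 of 10 genes was called higher and 3 lower, where 57.7% of all 15439 genes tested were called, 28.7% higher and 29% lower. The median log2 fold change was -0.06 over the 10 genes and -0.0033 over all genes tested. In 7 of the 10 the groups did not overlap, against 61.5% of all genes tested.

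Trib3 and Chac1 were called lower in both comparisons. Ddit3 and Ddit4 were called in opposite directions. Slc3a2 and Psat1 were called in I53A and not in the libraries labelled QKO. The difference between the effects, the I53A effect less the effect in the libraries labelled QKO, was tested in 1 fit over all 12 libraries. It was called for Ddit3 (log2 difference -1.91 ± 0.17 SE, edgeR adjusted p = 7.0e-07), Ddit4 (1.85 ± 0.16, edgeR adjusted p = 1.2e-06) and Slc3a2 (-0.79 ± 0.13, edgeR adjusted p = 0.000211). That is 3 of 10 genes, 1 positive and 2 negative, where 36.1% of 16501 genes were called, 18% positive and 18.1% negative. With the replicate block 6 of the 10 genes were called, where 48.9% of all genes were, with Chac1, Psat1 and Slc7a11 added (edgeR adjusted p = 0.0216, 0.0126 and 0.0416). That block also holds terms for the replicate numbers of set 2, which do not pair its libraries. Slc7a11 passed the filter of this fit through set 2, where it is higher, and its set 1 side rests on 22 counts in I53A and 7 in WT, so nothing is read from its call. Genotype is nested in set, so a difference between the effects cannot be told apart from a difference between the sets in how the libraries were made.

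**Figure D1:**
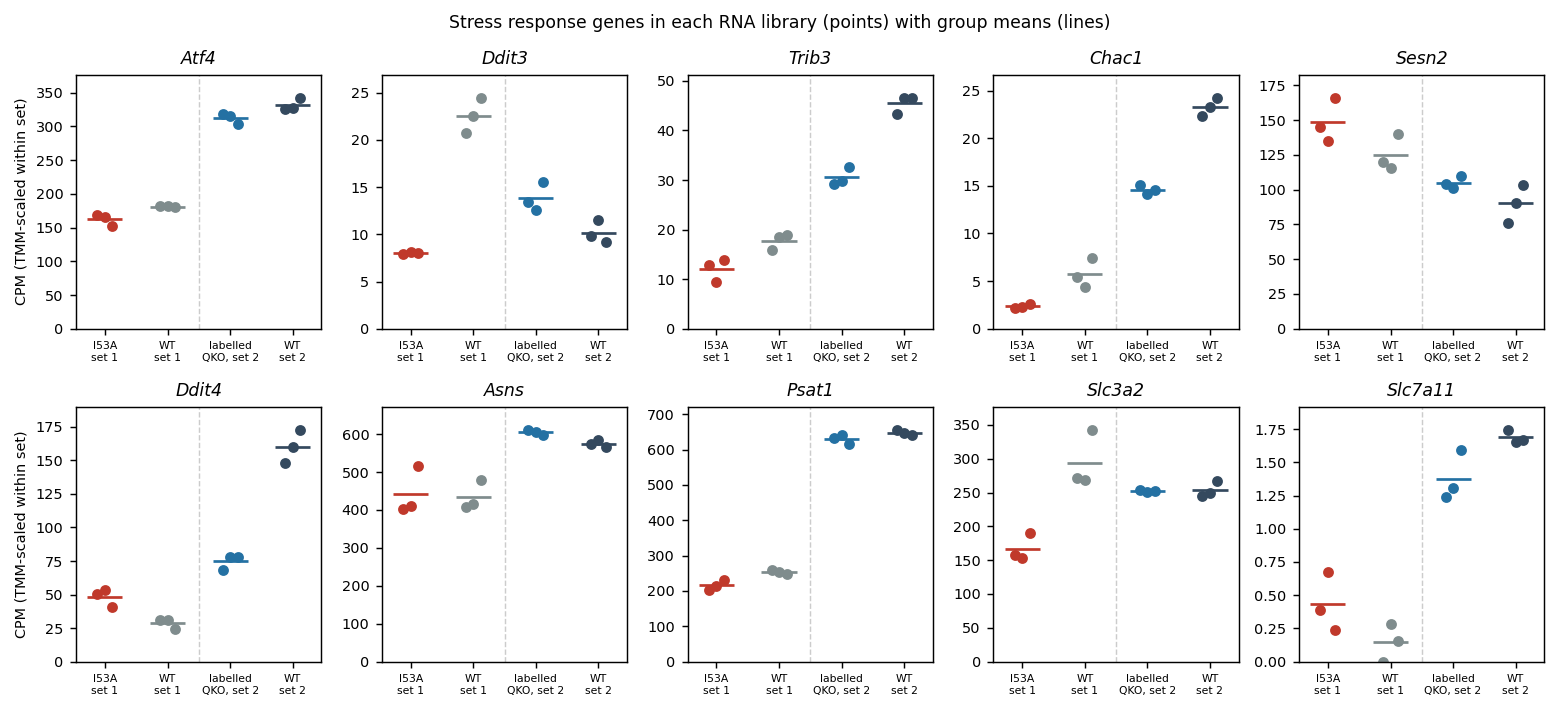
CPM of each gene (vertical axes from 0, TMM-scaled within each set) in every library, with points for replicates and lines for group means. From left to right the groups are I53A and WT of set 1, and the libraries labelled QKO and WT of set 2. Ddit3 lies near 8 CPM in I53A, below the WT range of 20.7 to 24.5, and Ddit4 lies between 68.0 and 78.1 CPM in the libraries labelled QKO, below the WT range of 148 to 172.

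Atf4 encodes the transcription factor at the centre of the response and lies on chromosome 15 from 80085614 to 80087970 on the plus strand (mm9, the build of all gene coordinates here). In set 1 it had 169, 165 and 152 CPM in I53A, against 182, 182 and 180 CPM in WT. Every I53A library was below every WT library, with a gap smaller than the range of the I53A libraries. The log2 fold change was -0.16 ± 0.07 SE (95% interval -0.32 to -0.0036, edgeR adjusted p = 0.103). With the replicate block, which pairs the libraries of set 1 by number, Atf4 was called lower (log2 fold change -0.16, edgeR adjusted p = 0.00540). Set 2 gave 318, 316 and 303.2 CPM in the libraries labelled QKO, against 325, 328 and 343 CPM in WT. The groups were again apart with a small gap, and the log2 fold change of -0.09 ± 0.04 was not called (interval -0.17 to -0.0081, edgeR adjusted p = 0.0543). This was close to the threshold: without WT replicate 1 or WT replicate 2 it was called (edgeR adjusted p = 0.0360 and 0.0400). The 2 effects differed by -0.05 (interval -0.22 to 0.12, edgeR adjusted p = 0.661).

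Ddit3 encodes CHOP, a C/EBP-family protein induced downstream of ATF4 that promotes cell death in lasting stress. It lies on chromosome 10 from 126727830 to 126733344 on the plus strand. In I53A it had 7.93, 8.10 and 8.06 CPM (143, 144 and 102 counts), against 20.7, 22.5 and 24.5 CPM in WT (369, 403 and 320 counts). The I53A libraries lay close together, far below the lowest WT library. The log2 fold change was -1.49 ± 0.12 (edgeR adjusted p = 5.9e-05), and the log2 ratio was -1.43 within replicates 1 and 2 and -1.60 within replicate 3. In set 2 the direction was the opposite, with 13.4, 12.6 and 15.5 CPM in the libraries labelled QKO against 9.81, 11.5 and 9.23 CPM in WT. The lowest library labelled QKO stood above the highest WT library, with a log2 fold change of 0.45 ± 0.11 (edgeR adjusted p = 0.000522). Of the 1713 bases counted for Ddit3, 81 (4.73%) are shared with exons of Mars and of RP24-341K21.6 on the other strand, and without a strand option reads there cannot be assigned to 1 gene. Mars, which encodes methionyl-tRNA synthetase, was not called in either comparison (log2 fold change -0.09 ± 0.15, edgeR adjusted p = 0.680, in I53A and 0.05 ± 0.04, edgeR adjusted p = 0.283, in the libraries labelled QKO).

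Trib3 encodes a pseudokinase that is induced by ATF4 and CHOP and acts back on them as an inhibitor. It lies on chromosome 2 from 152163158 to 152169768 on the minus strand. In I53A it had 12.9, 9.34 and 13.8 CPM, against 15.8, 18.5 and 19.0 CPM in WT. The groups did not overlap, but the highest I53A and the lowest WT library were close. This gave a log2 fold change of -0.57 ± 0.17 (edgeR adjusted p = 0.0293), with log2 ratios of -0.63 within replicates 1 and 2 and -0.46 within replicate 3. This call was lost without WT replicate 2, I53A replicate 1 or I53A replicate 2 (edgeR adjusted p = 0.0886, 0.0648 and 0.0759). Set 2 gave 29.3, 29.8 and 32.5 CPM in the libraries labelled QKO, against 43.2, 46.6 and 46.5 CPM in WT, a gap several times the spread of either group. There the log2 fold change was -0.57 ± 0.07 (edgeR adjusted p = 1.6e-10). The effects differed by 0.02 (interval -0.34 to 0.38, edgeR adjusted p = 0.932).

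Chac1 encodes a γ-glutamyl cyclotransferase that breaks down glutathione and is a target of ATF4. It lies on chromosome 2 from 119176965 to 119180117 on the plus strand. In I53A it had 2.22, 2.25 and 2.61 CPM (40, 40 and 33 counts), against 5.45, 4.35 and 7.41 CPM in WT (97, 78 and 97 counts). The I53A values were close together and the WT values spread more widely, with no overlap. Its log2 fold change was -1.28 ± 0.24 (edgeR adjusted p = 0.00461), with log2 ratios of -1.13 within replicates 1 and 2 and -1.51 within replicate 3. In set 2 the libraries labelled QKO had 15.1, 14.2 and 14.5 CPM, against 22.3, 23.3 and 24.3 CPM in WT. The groups were far apart for their spread, with a log2 fold change of -0.67 ± 0.09 (edgeR adjusted p = 3.2e-09). The larger size in I53A did not pass the test of the difference, which was -0.58 (interval -1.05 to -0.10, edgeR adjusted p = 0.0545). With the replicate block that difference was called (edgeR adjusted p = 0.0216), and it was called too without WT replicate 2 of set 1 (0.00996) or without I53A replicate 3 (0.0473).

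Sesn2 and Ddit4 encode inhibitors of mTORC1, the kinase complex that couples amino acids to growth. SESN2 senses leucine and acts through the GATOR complexes, and DDIT4, also called REDD1, acts through TSC. Sesn2 lies on chromosome 4 from 132047947 to 132066416 and Ddit4 on chromosome 10 from 59412423 to 59414518, both on the minus strand.

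Sesn2 had 145, 135 and 166 CPM in I53A, against 120, 115 and 140 CPM in WT. Replicate 3 was the highest of each group, and the groups overlapped. The log2 fold change of 0.25 ± 0.11 was not called (interval 0.0095 to 0.49, edgeR adjusted p = 0.0982). With the replicate block Sesn2 was called higher (log2 fold change 0.25, edgeR adjusted p = 0.000132), and likewise on replicates 1 and 2 only (edgeR adjusted p = 0.000892) and without WT replicate 3 (edgeR adjusted p = 0.0287). Set 2 gave 104, 101 and 110 CPM in the libraries labelled QKO, against 76.2, 90.3 and 104 CPM in WT. One WT library reached into the range of the libraries labelled QKO. Its log2 fold change was 0.22 ± 0.11 (interval -0.033 to 0.47, edgeR adjusted p = 0.122). Without that library, WT replicate 3, it was 0.33 and called (edgeR adjusted p = 4.9e-07).

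Ddit4 had 50.1, 53.1 and 40.5 CPM in I53A, against 31.1, 31.0 and 24.5 CPM in WT. Replicate 3 was the lowest of each group, and the groups did not overlap. EdgeR gave a log2 fold change of 0.73 ± 0.14 (edgeR adjusted p = 0.00423), with log2 ratios of 0.73 within replicates 1 and 2 and 0.72 within replicate 3. For set 2 the values were 68.0, 78.1 and 78.0 CPM in the libraries labelled QKO, against 148, 160 and 172 CPM in WT. Each library labelled QKO stood far below the lowest WT library. Here the log2 fold change was -1.10 ± 0.06 (edgeR adjusted p = 2.2e-18).

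**Figure D2:**
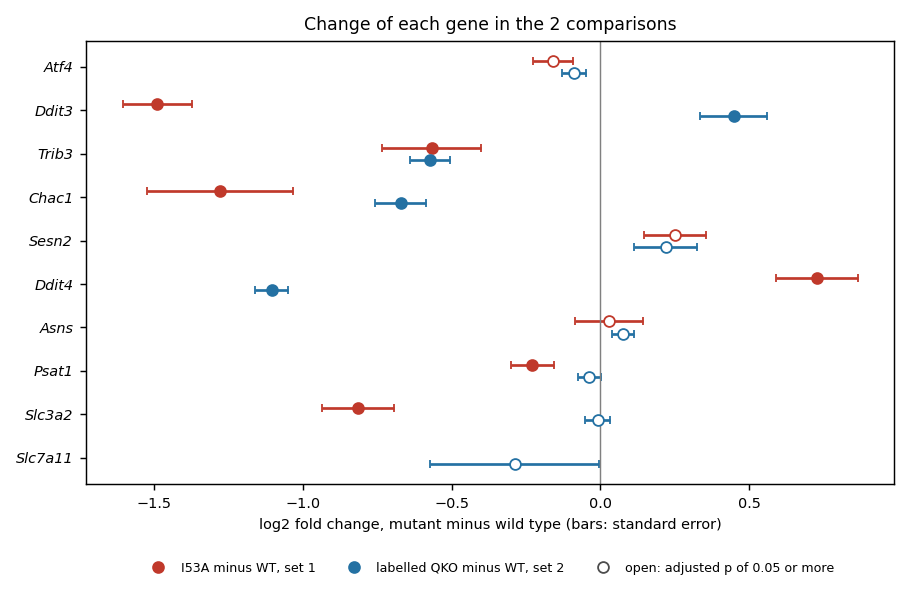
Log2 fold change of each gene (horizontal axis, mutant minus wild type, bars for the standard error) in I53A against WT (red) and in the libraries labelled QKO against WT (blue). Filled points had an edgeR adjusted p under 0.05. Ddit3 (-1.49 and 0.45) and Ddit4 (0.73 and -1.10) lie on opposite sides of 0, and Trib3 (-0.57 in both) and Chac1 (-1.28 and -0.67) on the same side.

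Asns and Psat1 encode enzymes that make amino acids, asparagine synthetase and the phosphoserine aminotransferase of serine synthesis. Asns lies on chromosome 6 from 7625169 to 7643254 and Psat1 on chromosome 19 from 15979168 to 16021827, both on the minus strand. Asns had 401, 411 and 517 CPM in I53A, against 408, 416 and 479 CPM in WT. The groups overlapped, and replicate 3 was the highest of each. Its log2 fold change was 0.03 ± 0.11 (interval -0.23 to 0.29, edgeR adjusted p = 0.874). For set 2 the values were 610, 607 and 599 CPM in the libraries labelled QKO, against 573, 585 and 565 CPM in WT. The groups were apart by little, with a log2 fold change of 0.08 ± 0.04 (interval 0.00090 to 0.15, edgeR adjusted p = 0.0779). It was called with scaling to library totals alone (edgeR adjusted p = 0.0109).

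Psat1 had 203, 214 and 231 CPM in I53A, against 258, 254 and 249 CPM in WT. The groups did not overlap, and the libraries of replicate 3 were the closest pair. It had a log2 fold change of -0.23 ± 0.07 (edgeR adjusted p = 0.0378), with log2 ratios of -0.29 within replicates 1 and 2 and -0.10 within replicate 3. The call was lost without WT replicate 1, WT replicate 2, I53A replicate 1 or I53A replicate 2 (edgeR adjusted p = 0.129, 0.103, 0.148 and 0.111). In set 2 it had 634, 643 and 617 CPM in the libraries labelled QKO, against 655, 646 and 642 CPM in WT. The groups overlapped narrowly, and the log2 fold change was -0.04 ± 0.04 (interval -0.11 to 0.04, edgeR adjusted p = 0.413). The effects differed by -0.17 (interval -0.34 to -0.0085, edgeR adjusted p = 0.0941), a difference that was called with the replicate block (edgeR adjusted p = 0.0126).

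Slc3a2 encodes the heavy chain CD98, which pairs with several amino acid transporter subunits at the cell surface, and Slc7a11 encodes xCT, its partner in cystine uptake. Slc3a2 lies on chromosome 19 from 8781372 to 8797859 and Slc7a11 on chromosome 3 from 50168858 to 50247535, both on the minus strand. Slc3a2 had 158, 154 and 190 CPM in I53A, against 271, 269 and 342 CPM in WT. Replicate 3 was the highest of each group, and the groups were far apart. The fitted log2 fold change was -0.82 ± 0.12 (edgeR adjusted p = 0.00137), with log2 ratios of -0.79 within replicates 1 and 2 and -0.85 within replicate 3. In set 2 it had 254, 250 and 252 CPM in the libraries labelled QKO, against 245, 249 and 268 CPM in WT. The groups overlapped, with a log2 fold change of -0.0091 ± 0.04 (interval -0.09 to 0.07, edgeR adjusted p = 0.868).

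Slc7a11 was barely detected. In set 1 it had 7, 12 and 3 counts in I53A, against 0, 5 and 2 counts in WT, and did not pass the filter on low counts. In set 2 it had 29, 21 and 34 counts in the libraries labelled QKO (1.24, 1.31 and 1.59 CPM), against 30, 30 and 36 counts in WT (1.74, 1.65 and 1.67 CPM). The CPM ranges were apart by little. Its fitted log2 fold change was -0.29 ± 0.28 (interval -0.86 to 0.28, edgeR adjusted p = 0.399), so a change of this size was not detectable at this depth. Per length, in FPKM scaled over 12 libraries, Slc3a2 had 89.9 ± 0.638 and its partner 0.129 ± 0.0176 in the libraries labelled QKO (n = 3 each).

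Levels of different genes were compared in this unit, FPKM, which is counts per counted exon length and library total, scaled over all 12 libraries. Asns was the highest of the 10 genes in each group, with 154 ± 21.3 FPKM in I53A, 149 ± 12.2 in WT of set 1, 233 ± 2.08 in the libraries labelled QKO and 222 ± 3.97 in WT of set 2 (n = 3 each). Atf4 was second in each group, with 89.6, 99.0, 191 and 204 FPKM in the same order. Slc7a11 was the lowest in each, at 0.0368, 0.0121, 0.129 and 0.159 FPKM. Between these, Slc3a2 and Psat1 came next in I53A, with 53.7 ± 5.94 and 48.4 ± 2.95 FPKM and ranges that overlapped. In WT of set 1 Atf4 and Slc3a2 overlapped in range, and in WT of set 2 Ddit4 with Slc3a2 and Sesn2 with Trib3. Chac1, Ddit3 and Trib3 took ranks 7 to 9 in all groups. In I53A Trib3 and Ddit3 had 5.38 ± 1.03 and 4.46 ± 0.0626 FPKM with overlapping ranges, above Chac1 at 1.37 ± 0.117 FPKM. In the libraries labelled QKO Chac1 and Ddit3 overlapped, at 9.40 ± 0.308 and 8.49 ± 0.937 FPKM.

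**Figure D3:**
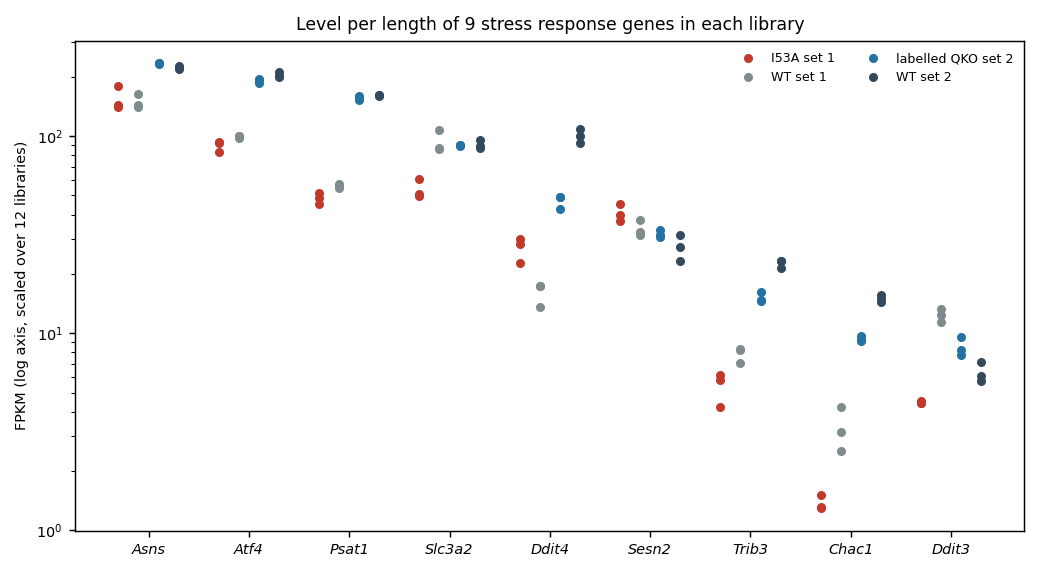
FPKM (logarithmic vertical axis, scaled over 12 libraries) of 9 of the genes in each library, with 3 points per group. Slc7a11, at 0 in 1 library, is left out. Asns, Atf4, Psat1, Ddit4, Trib3 and Chac1 are higher in both groups of set 2 than in both of set 1, while Sesn2 lies between 23.1 and 45.2 FPKM.

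The WT groups of the 2 sets carry the same label but were not at the same level, here in CPM scaled over 12 libraries. Ddit4 had 169 ± 13.2 CPM in WT of set 2 and 27.2 ± 3.75 CPM in WT of set 1 (log2 ratio 2.64). Chac1 had 24.6 ± 1.08 and 5.40 ± 1.42 CPM in the same order (2.19), and Trib3 48.1 ± 2.13 and 16.7 ± 1.54 CPM (1.52). Psat1 stood at 684 ± 5.51 and 239 ± 5.94 CPM (1.52), and Atf4 at 351 ± 10.4 and 171 ± 2.06 CPM (1.04). Asns was higher in set 2 by 0.57 on the log2 scale, while Ddit3 was lower, with 10.8 ± 1.27 CPM in WT of set 2 and 21.2 ± 1.63 CPM in WT of set 1 (log2 ratio -0.98). The ranges of Sesn2 and Slc3a2 overlapped. Culture, library making and alignment cannot be told apart from the set, so these values are given with no test. The measured WT level of Ddit4, Ddit3 and Chac1 thus differed between the comparisons in which their changes were measured.

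Other genes of the pathway were taken from 11 lists. Over all lists, with each gene once, 30 of 150 tested genes were called higher and 36 lower in I53A, or 44% where the background was 35.5%. In the libraries labelled QKO 50 of 149 were called higher and 51 lower, or 67.8% where the background was 57.7%. Counts below are at an edgeR adjusted p under 0.05 over all genes tested. Values are log2 fold changes ± SE, and where a pair of them follows a gene, the first is for I53A and the other for the libraries labelled QKO. The difference between the comparisons was not tested for single genes of these lists.

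Upstream in the response, the list of eIF2 kinases and eIF2 factors had 5 higher and 2 lower of 14 in I53A. Impact, whose product restrains the amino acid sensor GCN2, was lower in both comparisons (-1.07 ± 0.08 in I53A and -0.31 ± 0.05 in the libraries labelled QKO). Eif2b1 (0.60 ± 0.09) and Ppp1r15a (0.56 ± 0.12), the regulatory subunit that returns eIF2 to its unphosphorylated form, were higher in I53A. In the libraries labelled QKO 4 were higher and 6 lower of 14. Eif2ak4, which encodes GCN2, was lower (-0.61 ± 0.06), as was Ppp1r15a (-0.40 ± 0.08), and Eif2b4 was higher (0.37 ± 0.05). Of these, Eif2b1 was not called in the libraries labelled QKO, nor Eif2ak4 and Eif2b4 in I53A. Among partners of ATF4 and related transcription factors, 1 was higher and 2 lower of 11 in I53A, and 1 was higher and 7 lower of 11 in the libraries labelled QKO. Jdp2, a repressor related to ATF3, was lower in both (-1.49 ± 0.21 in I53A and -2.14 ± 0.14 in the libraries labelled QKO), and so was Nupr1, a stress-induced chromatin protein (-1.29 ± 0.20 and -0.70 ± 0.09). Atf3 was higher in I53A (1.88 ± 0.26, 5.87 ± 1.02 CPM against 1.60 ± 0.425 CPM in WT), and Atf6 in the libraries labelled QKO (0.45 ± 0.05), and neither was called in the other comparison.

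Aminoacyl-tRNA synthetases, which load tRNAs with amino acids, had 2 higher and 7 lower of 20 in I53A. Aars fell to 373 ± 14.8 CPM in I53A, against 721 ± 11.8 CPM in WT (-0.95 ± 0.07), Kars (-0.55 ± 0.08) and Sars (-0.53 ± 0.07) were lower and Wars higher (0.61 ± 0.10). In the libraries labelled QKO 9 were higher and 4 lower of 20, with small changes such as Wars (0.26 ± 0.04), Sars (0.23 ± 0.04) and Yars (-0.22 ± 0.04). Aars (0.12 ± 0.04) and Kars (0.13 ± 0.04) were also higher there, opposite to I53A, and Yars was not called in I53A. The list medians were -0.16 and 0.10. Amino acid transporters had 6 higher and 6 lower of 16 in I53A and 6 higher and 2 lower of 16 in the libraries labelled QKO. The transporter gene Slc36a4 was higher in both (1.60 ± 0.24 and 1.30 ± 0.17), as was Slc7a2, a carrier of cationic amino acids (1.79 ± 0.24 and 1.41 ± 0.17). Slc7a3, a carrier of the same kind, fell to 51.0 ± 6.18 CPM in I53A, against 150 ± 7.34 CPM in WT (-1.55 ± 0.10), and was higher in the libraries labelled QKO (0.47 ± 0.05).

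Serine, glycine and one-carbon enzymes, the neighbours of Psat1, had 1 higher and 4 lower of 11 in I53A and 4 higher and 4 lower of 11 in the libraries labelled QKO. Gldc, the decarboxylase of the glycine cleavage system, fell to 144 ± 13.2 CPM in I53A, against 254 ± 2.64 CPM in WT (-0.82 ± 0.08). In set 2 it had 267 ± 5.80 CPM in the libraries labelled QKO and 93.0 ± 5.09 CPM in WT (1.52 ± 0.05). Shmt1 (-0.40 ± 0.07) and Aldh1l2 (-0.62 ± 0.19) were lower in I53A. In set 2 Shmt1 was not called and Aldh1l2 was higher (0.37 ± 0.10). Mthfd1 was higher in I53A (0.21 ± 0.06) and lower in the libraries labelled QKO (-0.60 ± 0.04). Enzymes of amino acid synthesis and transamination had 2 higher and 2 lower of 12 in I53A and 4 higher and 7 lower of 12 in the libraries labelled QKO. Gpt2, an alanine aminotransferase, was lower in both (-1.41 ± 0.13 and -1.27 ± 0.05). Oat (1.33 ± 0.10 and 0.60 ± 0.06) was higher in both. So was Aass (1.03 ± 0.25 and 1.67 ± 0.23), which is in this list but encodes an enzyme of lysine breakdown. Bcat2 was lower in the libraries labelled QKO (-0.70 ± 0.05) and not called in I53A.

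Around Chac1 and Slc7a11, enzymes of glutathione and cysteine metabolism had 1 higher and 3 lower of 9 in I53A and 2 higher and 6 lower of 9 in the libraries labelled QKO. Gsr, glutathione reductase, was lower in both (-0.93 ± 0.10 and -0.76 ± 0.04), and Ggct higher in both (0.78 ± 0.15 and 0.46 ± 0.10). Gss, which completes glutathione synthesis, was lower in both (-0.71 ± 0.14 and -0.39 ± 0.08), as was Cbs (-0.30 ± 0.09 and -0.62 ± 0.06). Targets of NRF2, the antioxidant regulator that also acts on Slc7a11, had 3 higher and 3 lower of 14 in I53A and 1 higher and 9 lower of 13 in the libraries labelled QKO. Nqo1 was lower in both (-0.81 ± 0.13 and -1.29 ± 0.06). The other named targets were called in opposite directions. Srxn1 (0.79 ± 0.10 and -0.44 ± 0.07), Me1 (0.48 ± 0.16 and -0.73 ± 0.07) and Txnrd1 (0.30 ± 0.07 and -0.56 ± 0.04) were higher in I53A and lower in the libraries labelled QKO, and Tkt was lower in I53A and higher there (-0.60 ± 0.08 and 0.31 ± 0.04).

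Downstream, sestrins and mTORC1 nutrient sensing genes had 3 higher and 2 lower of 16 in I53A and 7 higher and 2 lower of 16 in the libraries labelled QKO. Rragd, a Rag GTPase gene, was lower in both (-1.21 ± 0.10 and -0.91 ± 0.08), as was Wdr59 of GATOR2 (-0.83 ± 0.08 and -0.50 ± 0.06). Ddit4l, the paralog of Ddit4, was higher in I53A (1.01 ± 0.11), and Mios of GATOR2 in the libraries labelled QKO (0.64 ± 0.07), and neither was called in the other comparison. The ATF6 and XBP1 branch of the unfolded protein response had 3 higher and 2 lower of 17 in I53A and 9 higher and 3 lower of 17 in the libraries labelled QKO. Creld2 was higher in both (0.52 ± 0.09 and 0.48 ± 0.07). Dnajb9 (1.01 ± 0.16) and Sel1l (0.60 ± 0.09) were higher in I53A and not called in the libraries labelled QKO. Manf (0.66 ± 0.05) and the ER chaperone gene Hsp90b1 (0.51 ± 0.04) were higher, and Ern1, which encodes the sensor IRE1, was lower (-0.90 ± 0.10), in the libraries labelled QKO, and none of these was called in I53A. Secreted and other stress effectors had 3 higher and 3 lower of 12 in each comparison. Pmaip1, which encodes the death factor NOXA, was higher in I53A and lower in the libraries labelled QKO (1.44 ± 0.25 and -0.30 ± 0.07), as was Vegfa (0.87 ± 0.11 and -0.24 ± 0.05), while Ero1l was lower in I53A and higher there (-0.37 ± 0.09 and 0.46 ± 0.05). Trib1 was higher in I53A (1.31 ± 0.11) and not called in set 2. Stc2 was higher (0.31 ± 0.08) and Sqstm1 lower (-0.41 ± 0.04) in the libraries labelled QKO, and neither was called in I53A. Bcat2, Gss, Hsp90b1 and Sqstm1 share 13.05% to 17.3% of their counted bases with exons of other genes, so their counts are less certain.

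**Figure D4:**
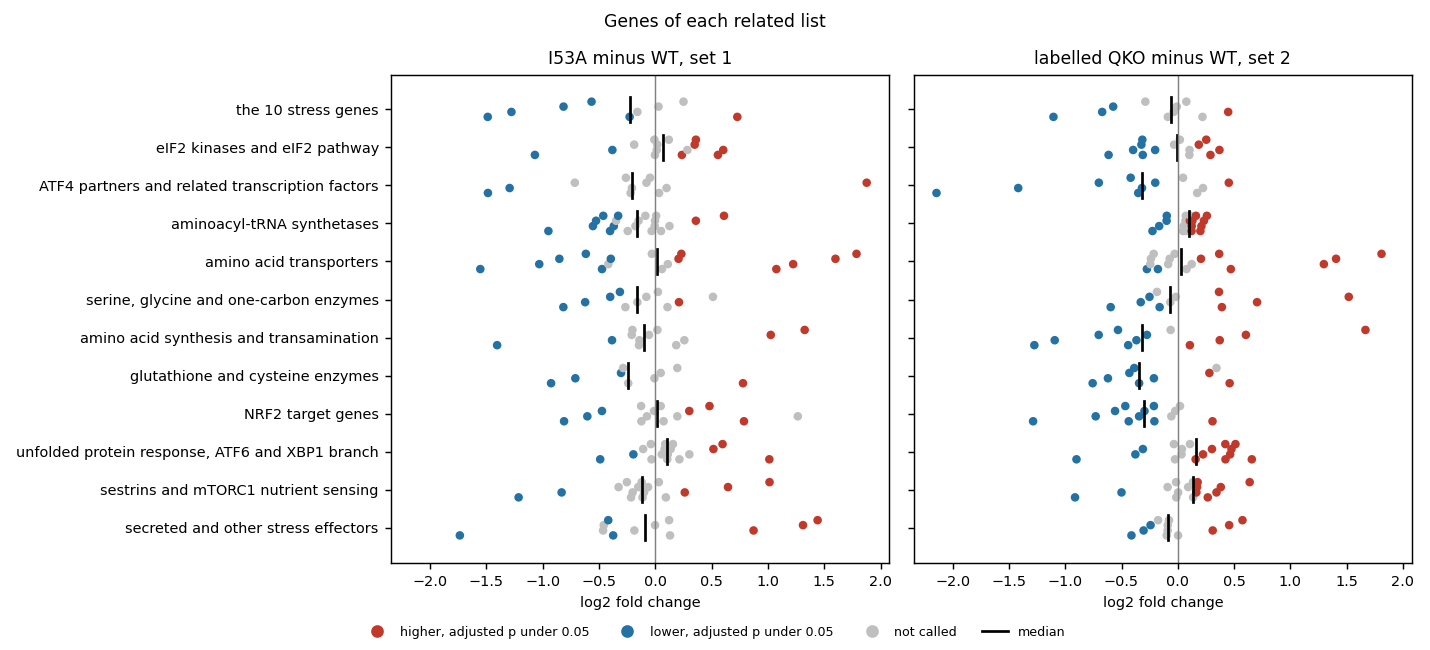
Log2 fold change (horizontal axis) of each tested gene of the 10 stress genes and of the 11 related lists, in I53A against WT (left) and in the libraries labelled QKO against WT (right). Red and blue points were called higher and lower, grey points were not called, and black bars are list medians. Both directions occur in every list in both panels, and the medians of the 10 genes are -0.23 and -0.06.

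Marker genes of cell types were read beside a background of 35.5% of all genes called in I53A and 57.7% in the libraries labelled QKO. In I53A all 10 primitive endoderm markers were called higher, with a summed level of 2850 to 2954 CPM against 301.99 to 336 CPM in WT. Foxa2, with 5.44 CPM in I53A and 0.100 CPM in WT, passed the filter through I53A, so nothing is read from its call. Of 10 embryonic stem cell markers 1 was higher and 4 lower, and they summed to 5446 to 5894 CPM in I53A and 6448 to 7046 CPM in WT. All 5 tested fibroblast markers were higher, at sums of 61.0 to 68.1 CPM in I53A and 25.7 to 27.3 CPM in WT, with Lum at 0 in I53A and Dcn, Postn and Fap at 0 in WT. Thy1 (31.9 CPM in I53A) and Pdgfrb (19.9 CPM) were the highest of them. Col1a2, with 4.83 CPM in I53A and 0.314 CPM in WT, passed the filter through I53A, so nothing is read from its call. The untested markers had few counts in both groups. Of 8 tested primitive endoderm markers 5 were higher in the libraries labelled QKO, at sums of 296 to 306 CPM against 211 to 224 CPM in WT. Sparc, with 157 CPM there and 96.3 CPM in WT, made up a large part of that difference in sums. Gata4 (1.29 CPM against 1.87 CPM in WT), Gata6 and Col4a1 were not called, and Sox17 and Foxa2 were not tested there. Of the embryonic stem cell markers 7 were higher and 3 lower there, at 7767 to 7856 CPM against 6783 to 6860 CPM in WT. Of 4 tested fibroblast markers 3 were higher, at 40.9 to 42.2 CPM against 22.3 to 22.9 CPM in WT, with Dcn and Lum at 0 in the libraries labelled QKO and Col3a1, Dcn, Lum, Postn, Acta2 and Fap at 0 in WT. Col1a2 again passed the filter through the group where it is higher (4.70 CPM against 0.160 CPM in WT). The part of these shifts in the changes of the 10 genes was not tested, and in bulk RNA fewer cells of a type and less RNA per cell cannot be told apart.

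How the 10 genes vary together was described over the 12 libraries, after centring log2 CPM on the mean of each set. Chac1 followed the mean of the 10 genes most closely (Pearson r = 0.97, n = 12), then Trib3 (0.93) and Slc3a2 (0.84). Psat1 (0.76), Atf4 (0.73) and Ddit3 (0.62) followed less closely. Asns (0.03), Ddit4 (-0.02) and Sesn2 (-0.41) had no clear relation to it. Slc7a11 (-0.27) passed the filter over the 12 libraries through set 2, so nothing is read from its value. Each gene is itself part of the mean, and the libraries share sets, genotype and depth. Of 16491 other genes, those with the closest pattern to the mean were Dazap1 (r = 0.988), St3gal2 (0.986), Baz2a (0.984), Mast2 (0.982) and Ets2 (0.981). All of these were called lower in both comparisons, Ets2 for example with log2 fold changes of -0.74 ± 0.12 in I53A and -0.38 ± 0.07 in the libraries labelled QKO. With 12 libraries in 4 groups, so high an r is given as a description only. The calls of these genes are no separate result, since the genes were picked on the same libraries.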

How the data were processed

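RNA was measured in 12 of the 93 samples of the series, and the other samples were not used here. Per the labels' protocols, TRIzol RNA was made into Illumina TruSeq libraries. Per the file headers, the authors deposited raw fragment counts per gene, made with featureCounts 1.6.3 on the GENCODE M1 annotation of NCBIM37 (mm9). No strand or multi-overlap option appears in those headers, so fragments over several genes are lost. Which aligner served which set was not given in the sources used here. The set 1 alignments carry TopHat in their names.

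From these counts, genes passing filterByExpr were tested with edgeR 4.0.16 (quasi-likelihood, robust, TMM scaling, R 4.3.3) within each set, and the difference between effects over all 12 libraries. All were two-sided. P-values were adjusted by Benjamini-Hochberg over all genes tested, with a threshold of 0.05. CPM and FPKM were computed from the deposited counts. DESeq2 1.42.0, other scalings and filters, a replicate block and leaving out libraries were alternatives. In set 1 same-numbered libraries deviated together (correlations 0.395, 0.458 and 0.662). Replicates 1 and 2 did so nearly as much across numbers (0.373 and 0.345), and replicate 3 ran against both (-0.551 to -0.485). The numbers were taken to pair the libraries, but these values set replicate 3 apart more than they pair replicates 1 and 2. Intervals cover 95%.

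Named genes are the 10 genes, up to 3 called genes per list and comparison with the largest change that reach 5 CPM in the higher group, 5 genes of like pattern, Rnf2 and the H1 genes. Some genes that this rule names are not reported here. Mars was added because its exons overlap those of Ddit3. The members and lists were chosen with earlier results of these data known. Promoter sequences are from RefSeq (GRCm38.p6).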

Additional observations from a re-analysis of the deposited data

Results flagged for a closer look

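The effect of genotype differed between the comparisons for 3 of the 10 genes, by a test of the difference itself in 1 edgeR fit over 12 libraries. Over all genes tested in that fit 36.1% were called, so this share is no larger than the background. For Ddit3 the log2 effect in I53A was below that in the libraries labelled QKO by -1.91 (effects of -1.49 and 0.45). For Ddit4 it was above it by 1.85 (effects of 0.73 and -1.10). For Slc3a2 the difference was -0.79 (effects of -0.82 and -0.0091). Each kept its sign and its call under all alternatives run. Genotype and set cannot be told apart in this difference.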

How the results depend on the processing

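Calls of Ddit3, Ddit4, Chac1 and Slc3a2 in I53A and of Ddit3, Ddit4, Trib3 and Chac1 in the libraries labelled QKO held under every alternative run. The calls of Trib3 and Psat1 in I53A were lost on leaving out single libraries, as given in the report. In I53A 8798 genes were called with the replicate block and 8343 on replicates 1 and 2 only, against 5512 without either. Leaving out single libraries gave 3828 to 5917 genes and 4 to 7 of the 9 tested members in I53A. The replicate numbers do not pair set 2 (correlations 0.0267, -0.0059 and 0.0976). There the replicate block called 7 of the 10 genes, where it called 58.8% of all genes, against 4 and 57.7% without it, adding Atf4, Asns and Sesn2 (edgeR adjusted p = 0.0286, 0.0415 and 0.000113). Leaving out single libraries of set 2 added Atf4 without WT replicate 1 or WT replicate 2, and Sesn2 without WT replicate 3, and lost no call. The difference between the effects was called for 6 of the 10 genes with the replicate block (48.9% of all genes), 5 on set 1 replicates 1 and 2 only (an alternative chosen after seeing the data) and 3 to 6 on leaving out single libraries, against 3 otherwise. It moved to 5 without WT replicate 2 of set 1 and to 6 without I53A replicate 3. The share of all genes called is not given here for the settings that leave out libraries. These counts are therefore not read as a result about the 10 genes. In I53A the block called 8 of the 9 genes tested, adding Atf4 and Sesn2, and it changed no other call among them. Without a filter on low counts 6 of the 10 genes were called in set 2, where 39.2% of all genes were, with Atf4 and Sesn2 added (edgeR adjusted p = 0.0278 and 0.000429), and DESeq2 called Atf4 there (adjusted p = 0.0475). With library totals, and when genes needed 1 CPM in 3 libraries, Asns was called in set 2 and the difference between effects for Chac1.

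Signs turned only where nothing was called. Asns in I53A was -0.024 on replicates 1 and 2 only and -0.098 to 0.099 on leaving out single libraries. Slc3a2 in the libraries labelled QKO was 0.017 with library totals, 0.00080 when genes needed 1 CPM in 3 libraries and -0.041 to 0.028 on leaving out single libraries. The difference between effects for Trib3 was -0.0065 with library totals, -0.0018 with that filter, -0.033 on set 1 replicates 1 and 2 only and -0.072 to 0.18 on leaving out single libraries. The same ranges were -0.15 to 0.039 for Asns and -0.086 to 0.14 for Sesn2. The causes were not tested. Slc7a11, with at most 36 counts in a library, and Chac1, with 33 to 97 in set 1, are limited by depth.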
